A study of Homo sapiens with 22 samples.

Results

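Ls174T cells, a human colon carcinoma line, were given an inducible shRNA targeting MIZ1 and then exposed to BI8622, a small molecule inhibitor of the ubiquitin ligase HUWE1, and the RNA response to the inhibitor in these cells is described here. The comparison was chosen by its place in the design and not by a measured value, though earlier results of these data were known. It rests on 4 of the 22 samples, 2 libraries with BI8622 and 2 with DMSO, and the series holds 16 RNA sequencing samples in all. All 4 libraries came from cells carrying the shRNA construct pIND-shMiz1 and kept with 1 µg/ml doxycycline for 4 days, which switches the shRNA on. BI8622 was given at 20 µM for 16 h. Set beside them below are 4 libraries of the same pIND-shMiz1 cells without doxycycline and 4 of Ls174T cells with the empty vector pLKO and no doxycycline named in their labels, each with 2 libraries in BI8622 and 2 in DMSO. Because both sides had doxycycline and the shRNA, the comparison shows BI8622 alone. No group with doxycycline and a vector free of shRNA was used here, so doxycycline itself and the loss of MIZ1 cannot be told apart wherever cells with and without doxycycline are set side by side. Neither the labels nor the methods state whether the 2 libraries of a group were separate cultures. The p-values then rest only on spread between these samples, which may be technical. As given below, this spread was taken as nearly the same for all genes of a level. Libraries of the series were made with one of 2 kits, and which kit belongs to which library was not given in the sources used here.

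HUWE1 is a large HECT-type ubiquitin ligase that attaches ubiquitin to MYC, N-MYC, MIZ1, MCL1, CDC6 and other proteins. MYC binds DNA at E-boxes with its partner MAX and activates genes of growth, nucleotide synthesis and ribosome assembly. With MIZ1, a zinc finger protein encoded by ZBTB17, MYC forms a complex that represses genes such as the cell cycle inhibitors CDKN1A and CDKN2B. MIZ1 is degraded after ubiquitination by HUWE1, and cells with a MIZ1 shRNA were used to ask how much of the inhibitor's response needs it.

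The authors' deposited tables hold, for each gene, a log2 fold change between 2 groups, a mean level in CPM (read counts scaled to the size of the library), a p-value and an adjusted p-value. They hold no value per library, so the level of each group was computed from the fold change and the mean level and is given below as an implied CPM over 2 libraries. Standard errors (SE) were read back from the fold changes and p-values, as a curve over the mean level. Among genes of at least 16 CPM, a gene's own SE departed from this curve by a median of 0.220%. Genes of the same level thus shared nearly the same SE, and it does not show how closely the libraries matched for a single gene. With doxycycline the SE of a BI8622 log2 fold change was 0.74 at 1 CPM, 0.33 at 5 CPM, 0.24 at 20 CPM and 0.21 at 200 CPM, n = 2 libraries a group. The curve corresponds to about 6.93 reads per library at 1 CPM, and to a coefficient of variation of 0.145 between libraries (0.119 without doxycycline). This SE is too small where a group is near 0 reads, and none is given there. Rose and fell below mean an adjusted p under 0.05 in the deposited table.

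ZBTB17, the target of the shRNA, checks the labels. Without doxycycline its implied level went from 15.9 CPM in DMSO to 22.4 CPM in BI8622, and with doxycycline it was 11.1 and 11.3 CPM. The deposited log2 difference, with over without doxycycline, was -0.53 in DMSO (adjusted p = 1) and -0.99 in BI8622 (adjusted p = 0.0519), both below 0 and neither called, so a loss of MIZ1 mRNA was not shown at this depth. The tables hold no protein values. HUWE1 mRNA was at 418 CPM in DMSO and 390.4 CPM in BI8622 with doxycycline, a log2 difference of -0.10 ± 0.21 (SE, adjusted p = 0.863). As a check of the cell type, all 14 colon epithelium and carcinoma markers were detected, with summed implied levels of 2333 CPM in DMSO and 3349 CPM in BI8622. Of markers of other cell types, 5 of 12 fibroblast genes (16.2 and 14.1 CPM summed), 5 of 12 leukocyte genes (174 and 176 CPM) and 6 of 10 endothelial genes (22.9 and 23.5 CPM) were in the table, and the others were not listed in it. CSF1R, a receptor of macrophages, made up most of the leukocyte sum, at 163 and 162 CPM, whereas PTPRC, the gene of the common leukocyte antigen CD45, was at 1.81 and 1.45 CPM. CD68, a lysosomal protein used as a macrophage marker, was the only gene of these 3 lists that was called, at 4.24 CPM in DMSO and 7.99 CPM in BI8622.

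To find which genes respond to BI8622 when the MIZ1 shRNA is on, all 25791 genes of the table were compared. BI8622 raised 1996 genes (7.74% of those tested) and lowered 2028 (7.86%). These shares are the background for the counts of list and family members below, and a count near them is not particular to its list. Genes that rose did so by a median log2 fold change of 1.03, and those that fell by a median of 0.90 on the log2 scale. Large rises outnumbered large falls: 223 genes rose by at least 2 on the log2 scale and 71 fell by as much, and the numbers were 65 and 10 at a log2 change of 3. The median log2 fold change of all genes was -0.01, and that of the 11948 genes of at least 16 CPM was -0.03. Of the 680 genes with a mean level under 1 CPM, 60 were called.

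**Figure D1:**
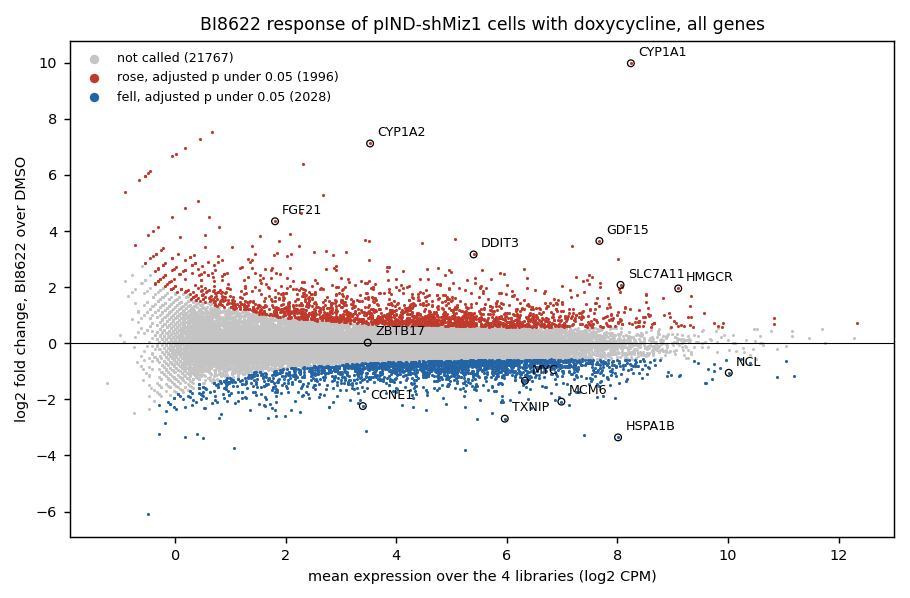
Response of every gene to BI8622 in pIND-shMiz1 cells with doxycycline. Each point is a gene, with its mean level over the 4 libraries in log2 CPM on the horizontal axis and the log2 fold change of BI8622 over DMSO on the vertical axis, coloured by whether it rose (1996 genes), fell (2028 genes) or was not called. CYP1A1 stands alone at the top, and the called genes lie mostly above 1 CPM.

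CYP1A1, the cytochrome P450 that oxidises polycyclic aromatic compounds (hg19 chromosome 15, 75011883 to 75017877), had the largest rise of all genes of at least 5 CPM in either group. It went from 0.598 CPM in DMSO, about 4 reads a library, to 605 CPM in BI8622, a deposited log2 fold change of 9.98 (adjusted p = 1.06e-160). Its neighbour CYP1A2 (hg19 chromosome 15, 75041186 to 75048948), the related enzyme of drug and caffeine oxidation, went from 0.164 to 22.9 CPM. Next in order came TP53TG3C, a member of a multicopy family on chromosome 16 whose reads can be shared between copies (0.118 and 9.81 CPM), the unnamed genes ENSG00000230803 (0.315 and 12.4 CPM) and ENSG00000225813 (0.372 and 9.37 CPM), and the hormone gene FGF21 (0.327 and 6.67 CPM). In DMSO these were near or under the level of a few reads a library, so their folds rest on those few reads. The other rises among the 10 largest were CD22, a B cell lectin (0.527 and 7.89 CPM), the long noncoding RNA LINC00365 (0.384 and 5.39 CPM), FAM129A, also known as NIBAN1 (4.72 and 61.9 CPM), and ENSG00000267188 (1.55 and 20.0 CPM).

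The largest falls were better supported by reads. PNMA6E, of the paraneoplastic antigen family, went from 70.3 CPM in DMSO to 5.03 CPM in BI8622 (log2 fold change -3.80 ± 0.23). The inducible HSP70 genes HSPA1B and HSPA1A followed and are described with the chaperones. C2CD4A fell from 19.8 to 2.24 CPM. SLC29A1, the nucleoside transporter ENT1 (hg19 chromosome 6, 44187290 to 44201879), fell from 76.5 to 11.7 CPM. CDCA7, a MYC- and E2F-responsive gene, fell from 90.6 to 16 CPM. LINC02672, the dendrin gene DDN and the adenosine receptor gene ADORA1, each under 7 CPM in DMSO, completed the 10 together with TXNIP.

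Several enzymes of foreign compound metabolism rose. AHR is a receptor that binds planar aromatic compounds and switches on CYP1 genes. Of 11 AHR targets 7 rose and 1 fell, with a median log2 fold change of 0.92. CYP1B1, another CYP1 enzyme, went from 27.3 CPM in DMSO to 137 CPM in BI8622 (log2 fold change 2.33 ± 0.22). TIPARP, an ADP-ribosyltransferase that restrains AHR, went from 56.1 to 301 CPM (2.42 ± 0.21), and AHRR, the AHR repressor, from 116 to 219 CPM (0.92 ± 0.21). The aldehyde dehydrogenase ALDH3A1 and the glucuronosyltransferase UGT1A6 also rose. UGT1A6 shares its last exons with the other UGT1A genes, so the rise cannot be assigned to one of them. NQO1, a quinone reductase under AHR and NRF2, had a log2 fold change of 0.53 ± 0.21 and was not called (adjusted p = 0.0688).

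NRF2 is the transcription factor of the oxidative stress response. Of its 21 listed targets 11 rose and none fell, with a median of 0.57. ABCC3, an export pump for conjugated compounds (hg19 chromosome 17, 48712138 to 48769614), rose from 22 CPM in DMSO to 137 CPM in BI8622 (log2 fold change 2.64 ± 0.22). SLC7A11, the cystine transporter that supplies glutathione synthesis, rose from 102 to 431 CPM (2.08 ± 0.21), and it is on the ATF4 list too. OSGIN1 rose from 4.11 to 24.5 CPM and the sulfiredoxin gene SRXN1 from 70.5 to 166 CPM. The aldo-keto reductases AKR1B10, AKR1C1 and AKR1C2, which are similar in sequence, and both ferritin genes rose as well. The pentose phosphate enzyme genes PGD, TKT and TALDO1 were not called, with log2 fold changes from -0.01 to 0.29. HMOX1, haem oxygenase 1 and a classical NRF2 target, had a log2 fold change of -0.67 (adjusted p = 0.137) and was not called.

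The amino acid stress programme had the highest median of all 39 lists. ATF4 is a transcription factor whose protein is made when the kinases of the integrated stress response phosphorylate eIF2α, and it switches on amino acid transporters and synthesis enzymes. Of 25 genes on its list 23 rose and 1 fell, with a median log2 fold change of 1.82. The promoters below hold letters of the form TGATGNAA, in which CEBP and ATF proteins can bind as pairs. They are shown because nearly all genes of the list rose, and because the site before ASNS overlaps a well-known amino acid response element. Each run is 30 bases from the RefSeq table of GRCh38.p14, read 5′ to 3′ in the direction of the gene, with the matched letters in capitals (as TGATGNAA in ASNS and ATF3, and as its reverse complement in CHAC1 and FGF21). The stretches are chr7:97872458-97872487 on the minus strand (its first capital lies 68 bases before the start site), chr15:40953251-40953280 on the plus strand (209 bases), chr19:48755459-48755488 on the plus strand (54 bases) and chr1:212565205-212565234 on the plus strand (191 bases).
ASNS: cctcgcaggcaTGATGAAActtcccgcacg
CHAC1: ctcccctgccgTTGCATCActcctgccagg
FGF21: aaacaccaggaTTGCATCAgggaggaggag
ATF3: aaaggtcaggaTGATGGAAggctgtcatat

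Over the window of 250 bases before to 50 bases after the start site, searched on both strands, TGATGNAA was found in 6 of the 22 ATF4 list members that the RefSeq table holds (27.3%) and in 3.62% of all 35116 promoters. Hits of different motifs overlapped in 15 promoters. Of the 6, ASNS, CHAC1, FGF21, ATF3 and SLC7A1 rose and SLC3A2 was not called. The median log2 fold change was 1.39 for members with the letters and 1.67 for those without, so within the list the rise was no larger with them. A match of letters describes the window only and is not a binding site.

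ASNS, asparagine synthetase (hg19 chromosome 7, 97480989 to 97501854), rose from 117 CPM in DMSO to 412 CPM in BI8622 (log2 fold change 1.82 ± 0.21). Several stress regulators rose. DDIT3, the transcription factor CHOP (hg19 chromosome 12, 57910371 to 57915520), rose from 8.45 to 75.9 CPM (3.17 ± 0.23), and PPP1R15A, the GADD34 phosphatase subunit that reverses eIF2α phosphorylation, from 24.1 to 266 CPM (3.46 ± 0.22). TRIB3, a pseudokinase, rose from 57.7 to 461 CPM (3.0 ± 0.21). GDF15, a secreted stress hormone (hg19 chromosome 19, 18485541 to 18499986), rose from 30.2 to 378 CPM (3.65 ± 0.21). ATF4 mRNA itself rose from 263 to 447 CPM (0.76 ± 0.21), and ATF3 from 27.8 to 54 CPM (0.96 ± 0.23). CHAC1, which degrades glutathione, and SESN2, a sensor upstream of mTORC1, rose by 2.02 and 2.03. The exception was the large neutral amino acid transporter: SLC7A5 fell from 1446 to 979 CPM (-0.56 ± 0.21, adjusted p = 0.0499), a call that was lost when fold changes were centred on the median of genes of at least 16 CPM, and SLC3A2, its partner chain, stood at 0.01 (adjusted p = 1).

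Some genes of neighbouring pathways rose. Of 20 aminoacyl-tRNA synthetases, the enzymes that load amino acids onto tRNAs, 9 rose and 1 fell (median 0.36). The tryptophan enzyme WARS rose from 136 to 331 CPM, and AARS, SARS and MARS rose by 1.08, 1.07 and 1.02. FARSA, a subunit of the phenylalanine enzyme, fell by 0.65 on the log2 scale, a call also lost on centring. Serine and one-carbon synthesis was split, with 4 of 11 genes higher and 2 lower (median 0.05). The serine enzymes PHGDH and PSAT1 rose by 0.83 and 0.77, and the mitochondrial folate enzyme MTHFD2 by 1.25. Its cytosolic relative MTHFD1 fell from 164 to 103 CPM, and ALDH18A1, which starts proline synthesis, from 178 to 105 CPM.

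In the endoplasmic reticulum list, 8 of 21 genes rose and 1 fell (median 0.19). Those that rose were led by signalling genes of the unfolded protein response. ERN1, the sensor IRE1, rose from 21.4 CPM in DMSO to 73.3 CPM in BI8622 (log2 fold change 1.78 ± 0.22), and XBP1, whose mRNA it splices, from 111 to 252 CPM (1.18 ± 0.21). HERPUD1 and DNAJB9 rose by 1.42 and 1.29. Of the luminal chaperones, HSPA5, the abundant BiP, rose from 495 to 777 CPM (0.65 ± 0.21, adjusted p = 0.0188) and HYOU1 by 0.69, whereas HSP90B1, CALR and CANX lay between -0.14 and 0.11 and were not called. SDF2L1, an HSPA5 cofactor, fell by 0.91.

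Most genes of sterol synthesis rose. SREBP2, the product of SREBF2, switches on cholesterol synthesis and uptake when membrane sterol is low. Of 24 genes on this list 20 rose and none fell, with a median log2 fold change of 1.22 and a range from 0.10 to 1.95. HMGCS1, the cytosolic HMG-CoA synthase (hg19 chromosome 5, 43287572 to 43313614), rose from 302 CPM in DMSO to 980.2 CPM in BI8622 (1.70 ± 0.21). Further down the pathway, SQLE, CYP51A1 and MSMO1 rose by 1.63, 1.74 and 1.95. SREBF2 itself rose by 1.03. The 4 members not called, PMVK, EBP and MVK among them, all had values above 0. Of 13 genes of fatty acid synthesis, which is largely under SREBP1, 2 rose (median 0.26), namely ACSS2, which makes acetyl-CoA from acetate (49.7 to 254 CPM, 2.35 ± 0.21), and the desaturase SCD (0.59 ± 0.21). FASN was at 0.46 ± 0.21 (adjusted p = 0.125), and ACACA and SREBF1 at -0.09 and -0.17, not called.

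Most heat shock genes fell. These genes are switched on by HSF1 and encode chaperones that fold cytosolic proteins. Of 25 on the list 20 fell and none rose, with a median log2 fold change of -0.97. HSPA1B and HSPA1A, the inducible HSP70 genes (hg19 chromosome 6, 31783320 to 31785723 for HSPA1A), are nearly identical, so reads can be split between them. HSPA1B fell from 470.2 CPM in DMSO to 45.9 CPM in BI8622 (-3.36 ± 0.21), and HSPA1A from 306 to 31.7 CPM (-3.27 ± 0.21). The cochaperone gene DNAJA1 fell by 1.95 and DNAJB1 from 199 to 71.9 CPM, the constitutive HSPA8 by 1.21 and HSP90AA1 by 1.15. The small heat shock protein gene HSPB1 and the cochaperone genes BAG3, STIP1 and AHSA1 fell by 1.28 to 1.35. The mitochondrial pair differed in size, HSPE1 falling from 148 to 51.9 CPM and HSPD1 from 1666 to 1019.8 CPM. Of the TCP1 ring complex, 5 of 8 listed genes fell. Not called were CCT4, CCT7, CCT8, the mitochondrial HSPA9 (0.04) and HSF1 itself (0.40 ± 0.22, adjusted p = 0.236). Of 39 proteasome genes 5 fell, none rose and 34 were not called (median -0.34), the falls including PSMD1 (268 to 146 CPM) and the activator gene PSME3 (171 to 87.2 CPM). Of 32 lysosome and autophagy genes 3 rose (WIPI1 by 1.57, SQSTM1 by 1.20, NPC1 by 1.07) and 1 fell (GLA, by 0.78). The share that rose was near that of all genes (7.74%), and the share that fell was under it (7.86%).

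**Figure D2:**
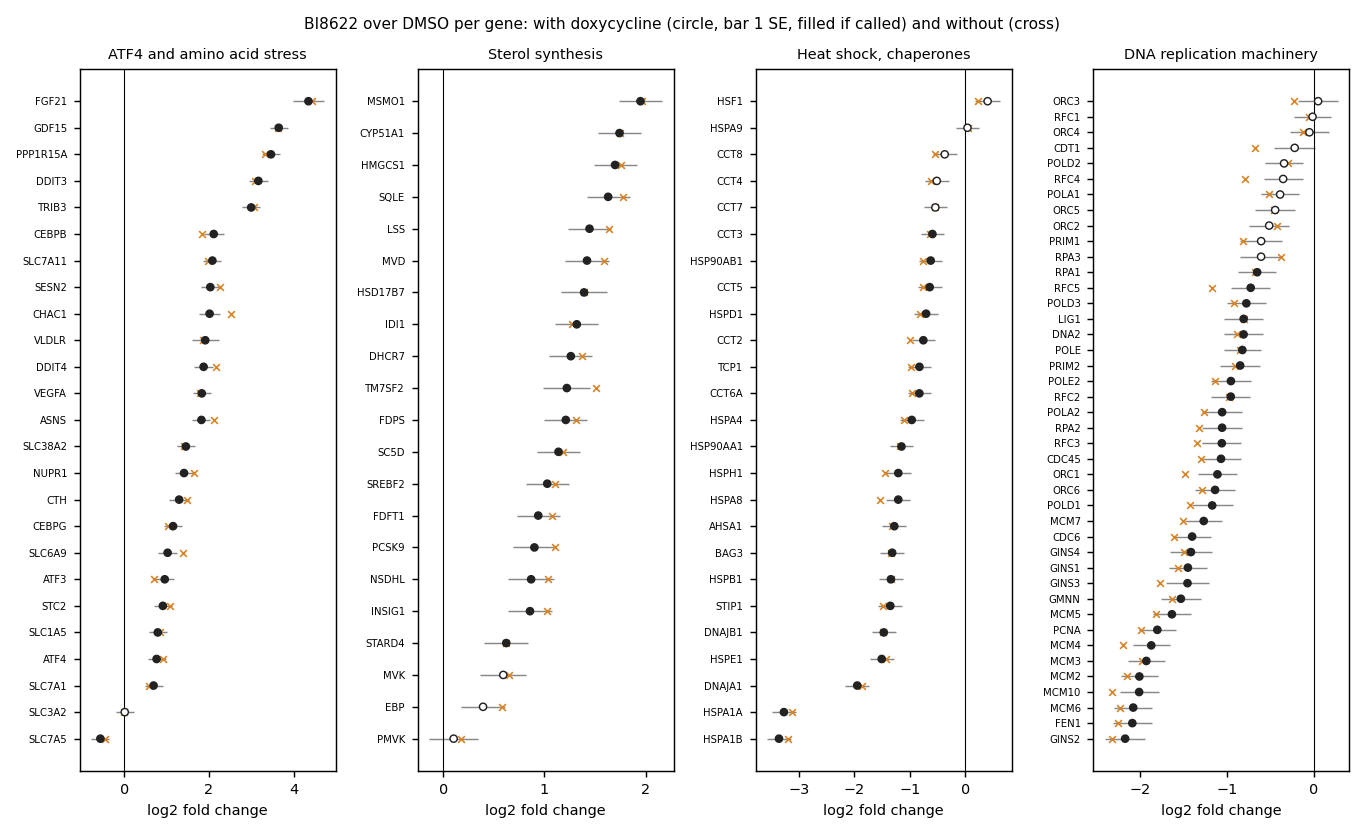
Log2 fold change of BI8622 over DMSO for genes of 4 lists: ATF4 and amino acid stress, sterol synthesis, heat shock and chaperones, and DNA replication. Circles are values with doxycycline, with bars of 1 SE and filled where called, and crosses are values without doxycycline. In the first 2 panels nearly all genes lie above 0 and in the last 2 nearly all below it, and the crosses follow the circles.

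Most genes of DNA replication fell. Origins are licensed by loading the MCM2 to MCM7 ring, and GINS and CDC45 then turn it into the moving helicase. Of 42 genes of this machinery 31 fell, none rose and 11 were not called, with a median log2 fold change of -1.06. ORC3, ORC4 and RFC1 were nearest to 0, at 0.05, -0.05 and -0.02. MCM6 (hg19 chromosome 2, 136597196 to 136634013) fell from 205 CPM in DMSO to 48.5 CPM in BI8622 (-2.08 ± 0.22), and MCM2 from 188 to 46.7 CPM (-2.01 ± 0.22). GINS2 fell from 49.1 to 10.9 CPM (-2.17 ± 0.23), and FEN1, the nuclease that trims Okazaki fragments, from 96.8 to 22.7 CPM (-2.09 ± 0.22). All 6 genes of the ring fell, and of the 9 MCM genes counted by name after the values were seen, 8 fell and MCM9 was not called. All 4 GINS genes fell, with a median of -1.45, and 3 of 5 RFC clamp loader genes did.

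Several of these promoters hold the E-box CACGTG, to which MYC and other helix-loop-helix factors bind. A few are shown because the report turns on genes under MYC, in runs of 30 bases as above, with the E-box in capitals: chr7:100101405-100101434 on the minus strand for MCM7, chr11:61792869-61792898 on the plus strand for FEN1, chr4:56435780-56435809 on the minus strand for PPAT, which starts purine synthesis, and chr2:197500345-197500374 on the plus strand for HSPE1. The last stretch lies between HSPE1 and HSPD1, which are transcribed away from each other, and its other strand is the HSPD1 promoter.
MCM7: agtggcgccggtCACGTGgggggcgacgtt
FEN1: tggcgagcaggtCACGTGacgggagcgcgg
PPAT: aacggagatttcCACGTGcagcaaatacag
HSPE1: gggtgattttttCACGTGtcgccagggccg

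CACGTG reads the same on both strands and was found in 7.26% of all 35116 promoters. It was in 5 of 35 promoters of the replication list (14.3%), 3 of 19 of nucleotide synthesis (15.8%), 11 of 36 of ribosome assembly (30.6%), 18 of 49 of the MYC-activated list (36.7%) and 3 of 63 of cytosolic ribosomal proteins (4.76%). Within the MYC-activated list, the median log2 fold change was -0.68 for genes with the E-box and -0.61 for those without. The promoters shown are all of genes that fell. Of the 18 genes with it on this list 13 were called, among them TERT, which rose by 2.33. CDK4 and APEX1, which hold it too, were not called. All 5 replication genes with it fell (GMNN, MCM2, MCM7, RPA1 and FEN1), in a list where 25 of the 35 genes with a promoter were called. In nucleotide synthesis 1 of 3 genes with it was called, PPAT, whose promoter is shown (median -0.50 with and -0.84 without), and in ribosome assembly 5 of 11 (-0.53 and -0.54). As for the other letters searched, TNGCGTG, the core to which AHR binds, was in 3 of 9 AHR target promoters (AHRR, NQO1 and UGT1A6) and in 5.51% of all.

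Many genes that drive entry into S phase fell too. Of 19 G1/S cyclins, kinases and E2F factors 12 fell and none rose (median -1.04). Cyclin E, encoded by CCNE1 and CCNE2, activates CDK2. CCNE1 fell from 17.4 CPM in DMSO to 3.68 CPM in BI8622 (log2 fold change -2.24 ± 0.27), CCNE2 by 1.73 and CDK2 by 1.65. E2F1 and E2F2, which switch on S phase genes, fell by 1.84 and 1.95. The cyclin D kinases did not pass the test, with CDK4 at -0.52 ± 0.22 (adjusted p = 0.0835) and CDK6 at -0.05 ± 0.21. CCND3 fell by 1.04, and CCND1 stood at -0.39, not called. Of 41 mitosis and kinetochore genes 14 fell and 2 rose (median -0.44). BIRC5, survivin, fell from 127 to 55.5 CPM and the checkpoint gene MAD2L1 from 104 to 49 CPM, whereas SPC24, a subunit of the NDC80 complex, rose from 60.9 to 123 CPM and the phosphatase gene CDC25B from 91.4 to 159 CPM.

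Nucleotide synthesis fell in 13 of 23 genes and rose in none (median -0.65). RRM2, the regulated subunit of ribonucleotide reductase (hg19 chromosome 2, 10260825 to 10351851), fell from 244 CPM in DMSO to 73 CPM in BI8622 (log2 fold change -1.74 ± 0.21). Thymidylate synthase, TYMS, fell from 175 to 63.8 CPM, and the purine enzymes PAICS and PPAT by 1.08 and 0.98. Of 33 replication-dependent histone genes 13 were in the table, and 3 rose and none fell (HIST1H2AC, HIST2H2BE and HIST1H2BN, each under 5 CPM in DMSO). Most replication-dependent histone mRNA lacks a poly-A tail, so these libraries see little of it.

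Of 44 nucleolar and assembly genes 19 fell and none rose, with a median log2 fold change of -0.55. NOLC1, a nucleolar chaperone, fell from 291 CPM in DMSO to 106 CPM in BI8622 (-1.45 ± 0.21), DKC1, the pseudouridine synthase, from 165 to 69 CPM (-1.26 ± 0.22), and RRS1 from 37.8 to 16.5 CPM (-1.20 ± 0.23). NCL, the gene of nucleolin, fell from 1397 to 673 CPM (-1.05 ± 0.21). NPM1, another nucleolar protein gene, was at 445 and 403 CPM (-0.14 ± 0.21) and was not called. None of the 79 cytosolic ribosomal protein genes was called, and their log2 fold changes lay between -0.28 and 0.35 with a median of 0.00. Without doxycycline none was called either (median -0.02), and in pLKO-empty cells 2 fell (median -0.15). Of 75 mitochondrial ribosomal protein genes 21 fell and none rose (median -0.31), among the falls MRPL49, MRPL50, MRPL18 and MRPL12, with falls of 1.25, 1.07, 1.03 and 0.93. Of 76 nuclear genes of the respiratory chain 3 fell (ATP5G1, ATP5G3 and NDUFS5, the last lost on centring, median -0.20), a smaller share than of all genes (7.86%). Of 13 mitochondrially encoded mRNAs 2 rose, MT-ND4 and MT-CO2, by 0.73 and 0.69 (median 0.02).

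MYC mRNA fell from 115 CPM in DMSO to 45.5 CPM in BI8622 (log2 fold change -1.34 ± 0.22, adjusted p = 1.18e-07). MYCL and MYCN, the other family members, fell by 1.28 and 1.04. The other 10 genes of the MYC, MAX and MXD network were not called, MAX lying at -0.04 ± 0.22 and MNT at 0.25 ± 0.23. Of 60 MYC-activated genes, 34 fell and 3 rose (median -0.66). Those that rose were MTHFD2, SHMT2 and TERT, the telomerase gene, which went from 1.35 to 6.80 CPM. Of 25 MYC-repressed genes 7 rose and 4 fell (median 0.37), and those that fell were TXNIP, ARRDC4, CEBPA and NDRG2, the last lost on centring. Of 10 polyamine genes 3 fell and 2 rose (median -0.25). The synthesis genes AMD1 and SRM fell from 155 to 52 CPM and from 38.5 to 16.9 CPM, and OAZ2, an antizyme that restrains ODC1, fell by 0.73. ODC1, the first synthesis enzyme, was at 353 and 281 CPM (-0.33 ± 0.21, adjusted p = 0.338) and was not called. The catabolic genes SAT1 and SMOX rose from 56.5 to 136 CPM and from 11.9 to 31.3 CPM.

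The MIZ1 list is short and counts no more than its 5 genes, of which 3 rose. CDKN2B, the inhibitor p15 of CDK4 and CDK6 (hg19 chromosome 9, 22002902 to 22009304), went from 0.441 CPM in DMSO, about 3 reads a library, to 4.83 CPM in BI8622 (adjusted p = 7.53e-10). CDKN1A, the inhibitor p21 of cyclin-CDK complexes (hg19 chromosome 6, 36644237 to 36655114), rose from 41.8 to 70.7 CPM (log2 fold change 0.76 ± 0.22). VAMP4, a vesicle fusion protein gene and known MIZ1 target, rose from 9.05 to 15.8 CPM (0.80 ± 0.26). AMBRA1, another gene of this kind, was at 0.04 ± 0.22 and was not called. A separate list of 6 CDK inhibitors also holds CDKN1A and CDKN2B. Its other members, CDKN1B, CDKN1C, CDKN2C and CDKN2D, were not called, from -1.02 to 0.73.

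Of 20 p53 targets 5 rose and 1 fell (median 0.08). SESN2, GADD45A and BBC3, the proapoptotic PUMA, rose by 2.03, 1.52 and 0.90, and the death receptor gene FAS fell by 0.81. MDM2, the p53 ligase and target, was at -0.05 ± 0.22 (adjusted p = 0.955). In the BCL2 family 3 of 13 genes rose (BBC3, BCL2L1 and BIK) and 4 fell (BOK, BID, BCL2 and BCL2L11, the last lost on centring). Among mRNAs of HUWE1 and proteins it ubiquitinates, 4 of 10 fell, CDC6, MYC, MYCN and TOPBP1. MCL1 was at -0.24 ± 0.21 (adjusted p = 0.551) and was not called. These are mRNA levels and carry no information on the proteins.

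TXNIP and ARRDC4, arrestin-related genes that respond to glucose through MondoA and restrain its uptake, fell together. TXNIP fell from 108 CPM in DMSO to 16.7 CPM in BI8622 (log2 fold change -2.69 ± 0.22), and ARRDC4 from 32.7 to 6.71 CPM (-2.28 ± 0.24). ARRDC3, of the same family, rose from 16.5 to 42.8 CPM. SLC2A1, the glucose transporter GLUT1, rose from 72 to 236 CPM (1.71 ± 0.21) and VEGFA from 73.8 to 262 CPM (1.83 ± 0.21). Of 29 glycolysis and hypoxia genes 4 rose and 5 fell (median -0.15). The rises were SLC2A1, VEGFA, NDRG1 and the aldolase gene ALDOC (10.9 to 25.7 CPM), and the falls included PGAM1 (119 to 49.4 CPM), LDHA (648 to 322 CPM), TPI1 and the hypoxia marker CA9.

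Of 18 feedback genes of ERK signalling 10 rose and 1 fell (median 0.61). EPHA2, a receptor tyrosine kinase gene (hg19 chromosome 1, 16450832 to 16482564), rose from 60.3 CPM in DMSO to 312 CPM in BI8622 (log2 fold change 2.37 ± 0.21). The phosphatase genes DUSP4, DUSP5 and DUSP6 rose by 0.87, 1.97 and 0.61, and ETV4 and ETV5 by 0.64 and 0.86. DUSP10, a phosphatase of JNK and p38, fell from 3.61 to 1.65 CPM, a call lost on centring. Among 20 immediate early genes 9 rose and 1 fell (median 0.64), with EGR1 from 5.99 to 23.2 CPM and FOS from 2.35 to 7.51 CPM, whereas JUN was at -0.28 ± 0.27 and was not called. Of 22 NF-κB and interferon targets 7 rose and none fell (median 0.61), among them ICAM1 (16.5 to 46.7 CPM) and OAS1 (18.5 to 52.4 CPM), while NFKBIA, the inhibitor of NF-κB, was at 0.17 and was not called. Of 19 BMP and TGF-β genes 4 rose and 2 fell (median -0.01), the falls being ID2 (92.5 to 46.2 CPM) and ID3 (90.2 to 52.2 CPM).

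Colon identity genes moved in both directions. In bulk RNA, fewer cells of a kind and less RNA per cell cannot be told apart. WNT signalling keeps crypt stem cells, and of 20 WNT target and stem genes 8 fell and none rose (median -0.56). SMOC2 fell from 107 CPM in DMSO to 26 CPM in BI8622 (log2 fold change -2.03 ± 0.22), the stem cell factor gene ASCL2 by 1.41, LGR5 by 1.02, and the crypt positioning receptors EPHB2 and EPHB3 by 1.43 and 1.53. AXIN2, the WNT feedback gene, fell from 295 to 191 CPM. SOX9, RNF43, ZNRF3 and CD44 lay between -0.19 and -0.06 and were not called. MUC2, the gel-forming mucin of goblet cells (hg19 chromosome 11, 1074875 to 1104416), rose from 47.5 to 112 CPM (1.24 ± 0.22), and AGR2, a disulfide isomerase needed for it, from 132 to 220.5 CPM. Of the other secreted mucins, MUC5B fell from 112 to 63.6 CPM and MUC6 from 866 to 537 CPM, and MUC5AC was at -0.62, not called. In all, 3 of 18 goblet genes rose and 3 fell (median 0.45). Of 17 enterocyte genes 5 rose, among them CDH17 (163 to 399 CPM), CEACAM1 and KRT20, and 3 fell (median 0.15). The intestinal homeobox genes were among the falls, CDX1 from 58.7 to 15.8 CPM and CDX2 from 104 to 49.4 CPM.

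**Figure D3:**
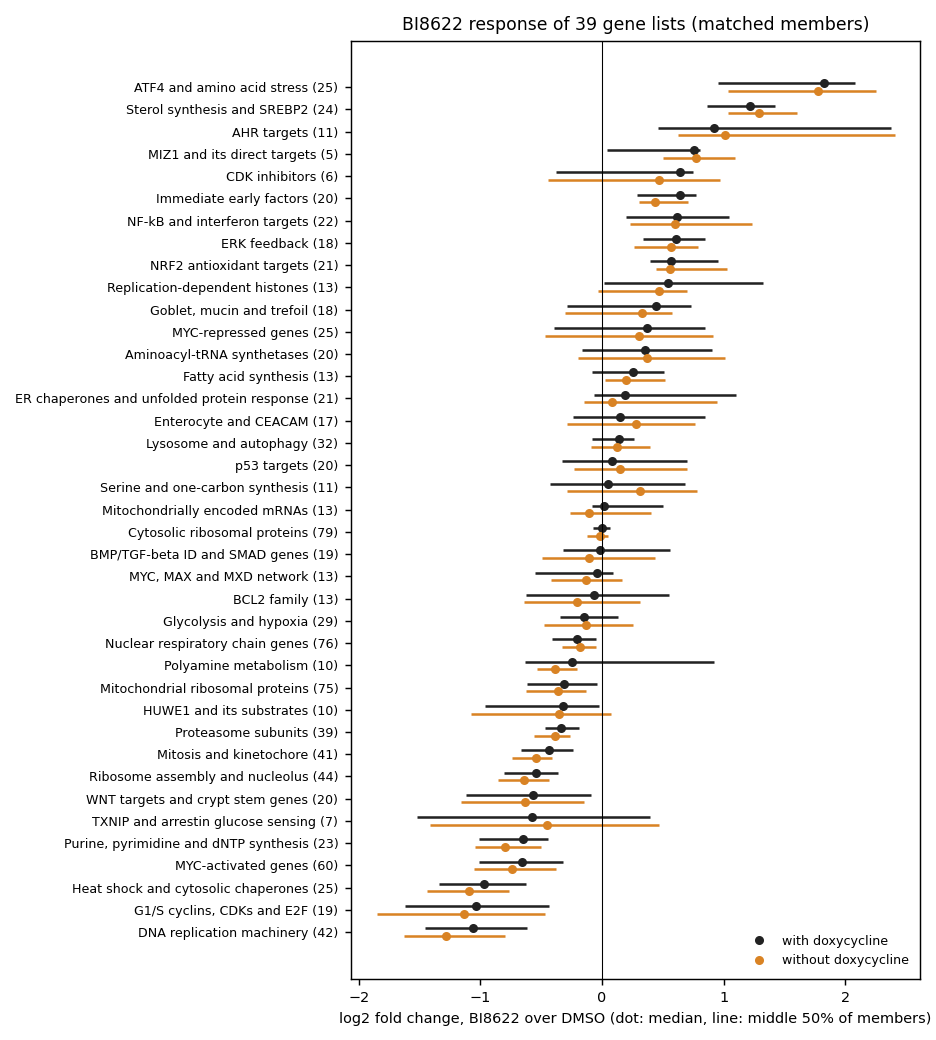
Median log2 fold change of BI8622 over DMSO of the 39 gene lists (dot, with the number of matched members in brackets) and the middle 50% of the members (line), with doxycycline in black and without in orange. ATF4 and sterol synthesis lie at the top and DNA replication, G1/S and heat shock at the bottom.

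Over the 39 lists, 933 different genes were measured, of which 145 rose and 198 fell. Gene families were also counted by their symbols after the values had been seen. The protocadherin γ genes of subfamily A rose in 9 of 10 (median 0.90), although they share their last exons, and 7 of 8 UGT genes rose (median 0.72), of which the UGT1A genes share theirs. Of 22 cytochrome P450 genes 13 rose and 2 fell (median 0.93). Of 10 SRSF splicing factor genes 5 fell (median -0.59), of 9 TOMM and 13 TIMM genes of mitochondrial import 4 and 5 fell, and of 20 nucleoporin genes 6 fell. None of these SRSF, TOMM, TIMM and nucleoporin genes rose. By annotated type, 8.80% of 14797 protein-coding genes rose and 9.08% fell, against 8.62% and 5.07% of 4375 long noncoding RNAs and 3.62% and 7.36% of 4335 processed pseudogenes, whose reads can come from their parent genes. Among 12130 protein-coding genes of at least 5 CPM, the share that fell declined from 14% in the fifth with the shortest genomic span to 5.56% in the fifth with the longest, while the share that rose was 9.32% and 8.41%. Span and log2 fold change had a Spearman rho of 0.08 across these genes, which share their libraries and are not replicates.

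To ask whether the response depended on the induced shRNA, it was set beside that of the same cells without doxycycline. The 2 responses have no library in common. Without doxycycline 3155 genes rose (12.2%) and 2985 fell (11.6%). No gene was called in opposite directions. There were 206 rises and 235 falls called with doxycycline and not without it, and 1365 rises and 1192 falls called without it and not with it. A call on one side only does not show a difference. Among genes of at least 5 CPM, all 224 called only with doxycycline had the same sign without it, with a median size of 0.77 with and 0.46 without. Of 1893 called only without it, 1884 had the same sign with it, at a median size of 0.49 with and 0.62 without.

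The difference itself was tested for each gene from the SE of both responses. It was called for 1 of 25791 genes (0.00388%), and 208 genes had an unadjusted p under 0.05 (0.806%). The next smallest adjusted p after the first was 0.727. The called gene was CCL20, an NF-κB target chemokine, which with doxycycline went from 0.454 CPM in DMSO to 0.553 CPM in BI8622 and without it from 0.0181 to 2.23 CPM. All of these levels but the last are a few reads a library or fewer, where the SE is too small, so the call does not stand on its p-value. The SE sets what could be seen: the 95% interval of a difference reached 1.98 to either side on the log2 scale at 1 CPM, 0.87 at 5 CPM, 0.63 at 20 CPM and 0.54 at 1000 CPM. These limits are for a single gene without adjustment. A call after adjustment over all genes needed a larger difference, so differences beyond these limits could be missed too. Of the z values of genes of at least 16 CPM the robust scale was 0.438, where a calibrated test gives 1, so the test called less than its threshold states. When z was divided by that scale, an alternative chosen with earlier results known, 1385 genes were called (5.37%), of which 142 had at least 16 CPM. For 102 of those 142 the response was smaller in size with doxycycline, and for 40 it was larger. The sign was opposite with and without doxycycline in 35 of the 142, so the split by size does not describe a weaker response alone. The 1385 included 17 of the 933 list members (1.82%, against 5.37% of all genes). These shares were not matched for level: of the 11948 genes of at least 16 CPM, only the 142 were called. The lists can therefore not be said to hold fewer differences. ZBTB17, SLC2A1 and RRM2 were among the 17. No list held more than 3 of them. The lists with 3 were DNA replication (CDT1, RFC4 and RFC5, of 42), G1/S (CDC25A, E2F2 and E2F7, of 19) and MYC-repressed (CDKN2B, TXNIP and ARRDC3, of 25).

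**Figure D4:**
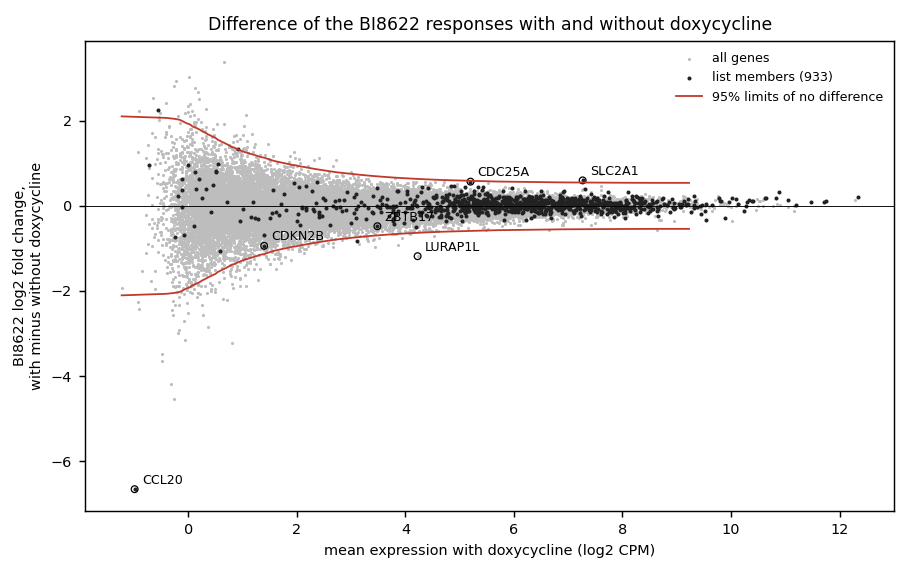
Difference of the BI8622 log2 fold changes with minus without doxycycline (vertical axis) against the mean level with doxycycline in log2 CPM (horizontal axis). Grey points are all genes, black points the members of the gene lists, and red lines the unadjusted 95% limits of no difference. CCL20 lies at -6.66 at the left edge, and above 5 CPM few points cross the red lines.

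Of the 933 list genes, 4 had an unadjusted p under 0.05 in the difference test (0.429%, against 0.806% of all genes). These shares were not matched for level either. In the 36 lists of 10 or more members the median difference, with minus without doxycycline, lay between -0.15 and 0.17, above 0 in 20 lists and below it in 16. Fewer falls were called with doxycycline than without in 19 of the lists, the same number in 17 and more in none. Fewer calls with doxycycline were not particular to the lists or to falls. Over all genes 7.86% fell with it and 11.6% without, and 7.74% and 12.2% rose. The DNA replication list gave 31 falls with and 35 without (medians -1.06 and -1.28), ribosome assembly 19 and 32 (-0.55 and -0.64), mitosis 14 and 26 (-0.44 and -0.54) and the proteasome 5 and 14 (-0.34 and -0.39). ATF4 gave 23 rises in both settings (1.82 and 1.78), heat shock 20 and 23 falls (-0.97 and -1.10) and sterol synthesis 20 and 23 rises (1.22 and 1.29). The coefficient of variation was the larger with doxycycline, as given above, and its part in these counts was not tested.

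Members with wide gaps included SLC2A1, with log2 fold changes of 1.71 with and 1.11 without (difference 0.60 ± 0.28), CDC25A, with -1.60 and -2.17 (0.57 ± 0.30), and ZBTB17 itself, with 0.02 and 0.50 (-0.48 ± 0.34). None of these 3 differences was called before rescaling, and all 3 were called when z was divided by its robust scale. CDKN1A had 0.76 and 1.10 (-0.34 ± 0.29), and VAMP4 0.80 and 0.77 (0.03 ± 0.35). The 95% interval of the difference ran from -0.91 to 0.23 for CDKN1A and from -0.65 to 0.71 for VAMP4. Both intervals use the SE before rescaling. Among genes of at least 16 CPM the differences spread less than this SE states (robust scale 0.438). CDKN2B went from 0.361 to 7.59 CPM without doxycycline, against 0.441 to 4.83 CPM with it. Among genes outside the lists, LURAP1L had the smallest p of those of at least 5 CPM. With doxycycline it went from 9.62 CPM in DMSO to 27.8 CPM in BI8622 and without it from 4.09 to 26.8 CPM, so that its groups differed in DMSO more than in BI8622. Its difference was -1.18 ± 0.33 (adjusted p = 1), and reads of its antisense neighbour LURAP1L-AS1 could not be told apart from its own where the 2 overlap.

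**Figure D5:**
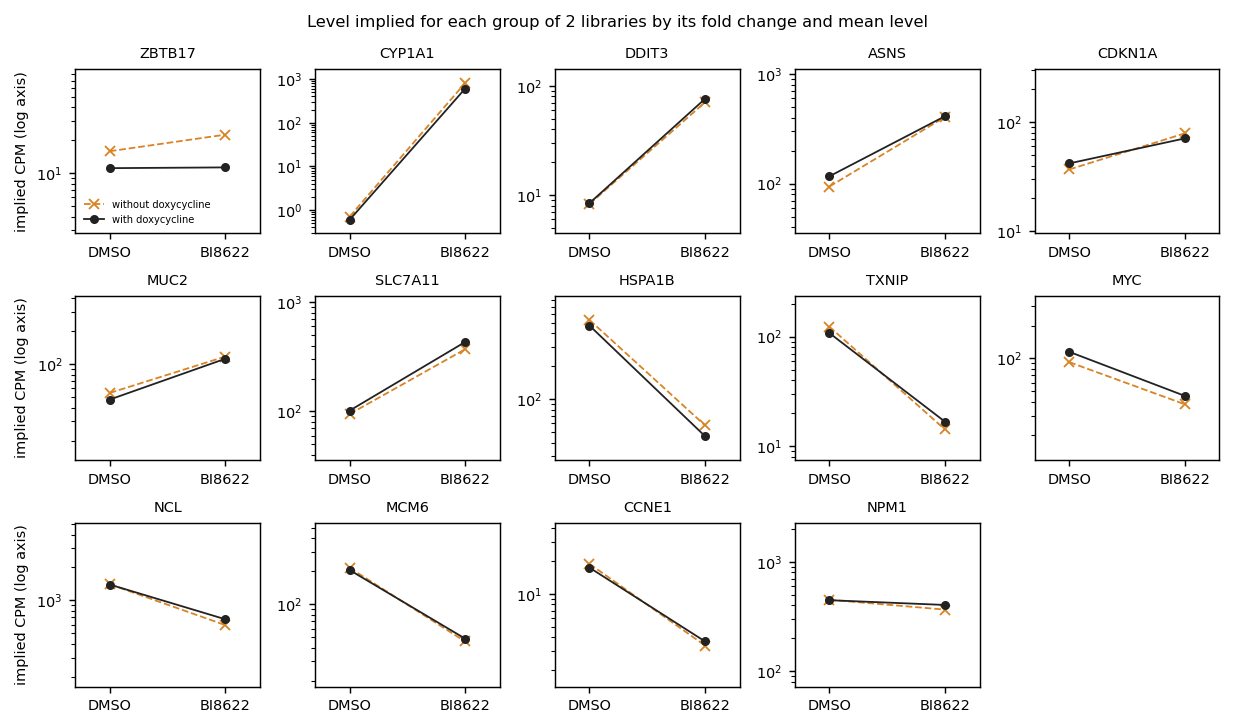
Implied CPM (log axis) in the groups with DMSO and BI8622, with doxycycline (black circles, solid) and without (orange crosses, dashed), for 14 genes, each point standing for 2 libraries. The lines run nearly parallel for most genes, and ZBTB17 is the panel in which the line with doxycycline is flat and the other is not. Its gap of -0.48 ± 0.34 on the log2 scale was called only when z was divided by its robust scale.

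Cells with the empty pLKO vector gave a further view of BI8622, from 4 libraries whose comparison was deposited in another table. The labels do not say whether these libraries were prepared together with those of the pIND-shMiz1 cells. There 2455 of 25244 genes rose (9.73%) and 2349 fell (9.31%). ATF4 targets rose in 22 of 25 (median 1.15), sterol genes in 20 of 24 (0.69) and AHR targets in 8 of 10 (0.96). Falls were seen in 36 of 42 replication genes (-0.85), 22 of 25 heat shock genes (-0.65) and 30 of 44 ribosome assembly genes (-0.45). Side by side, CYP1A1 had a log2 fold change of 9.98 in pIND-shMiz1 cells with doxycycline and 8.37 in pLKO-empty cells, DDIT3 3.17 and 1.22, HSPA1B -3.36 and -2.08, MCM6 -2.08 and -1.22, MYC -1.34 and -0.41, CDKN1A 0.76 and 0.44, and SRXN1 1.23 and 0.06. Without doxycycline the values in pIND-shMiz1 cells were 3.09 for DDIT3, -3.20 for HSPA1B, -2.24 for MCM6, -1.28 for MYC and 1.07 for SRXN1, so the gaps to pLKO-empty cells were there without doxycycline too. They were not tested, and the vector and any other difference between the sets of libraries cannot be told apart in them.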

How the data were processed

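Poly-A RNA of Ls174T cells was read on an Illumina Genome Analyzer IIx. Reads were mapped by the authors to hg19 (Bowtie 0.12.8) and groups were compared pairwise by the authors in edgeR, and CASAVA and FastQC are named in the submitters' processing notes too. How reads were counted, any filter and the edgeR version are not given in the sources. As deposited by the authors, a log2 fold change, a mean log2 CPM, a p-value and an adjusted p-value stand for each gene. The adjusted values were checked against a Benjamini-Hochberg adjustment (largest gap 1.1e-06). Counts or levels per library were not used, so no test per gene was rerun. The table has 25791 genes after 7 repeated rows were removed.

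The implied CPM of a group was solved from the fold change and the mean level. Each p-value was turned into a normal z, fold change over z gave a SE per gene, and a curve of 60 bins over the mean level gave the SE used (median departure of a gene's own SE 0.220%). The difference of the BI8622 responses with and without doxycycline was tested with a two-sided normal z from both SEs and Benjamini-Hochberg adjustment over all genes. These steps were tested on simulated data, but whether the SE holds for these libraries was not tested there. In the deposited data the z of the difference had a robust scale of 0.438 among genes of at least 16 CPM. Python 3.11.15, numpy 2.4.6, pandas 2.3.3 and scipy 1.17.1 were used. The alternatives changed the threshold, the filter on low levels, the centring and the SE.

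Gene lists (39, and 4 of cell type markers) were written from general knowledge, and the comparison, the lists and the difference test were chosen with earlier results of these data known. Members were matched by symbol. Genes were named if among the 10 largest rises or falls of at least 5 CPM in either group, if among the 4 of smallest p that rose or fell in a list, if of smallest p in the difference test, or if on a short list kept whatever their values (ZBTB17, HUWE1, MYC, CYP1A1, CDKN1A, MUC2, VAMP4, NCL, NPM1, ODC1, HSPE1, CCNE1, CDK4, TXNIP and ASNS). Other members were named after their values were seen, to show a list's range or its members not called. Gene positions are from the GENCODE annotation lifted to GRCh37, and promoters from RefSeq on GRCh38.p14, and the 2 builds were not mixed. The authors' ChIP sequencing samples were not analysed here, and the shRNA's target sequence is not printed. Some members of the lists are counted but not reported by name here.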

Additional observations from a re-analysis of the deposited data

Results flagged for a closer look

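CCL20 was the gene that passed the test of the difference between the settings. Its BI8622 log2 fold change with doxycycline minus that without was -6.66 (adjusted p = 2.55e-06). With doxycycline CCL20 went from 0.454 CPM in DMSO to 0.553 CPM with the inhibitor, and without doxycycline from 0.0181 to 2.23 CPM. At about 7 reads per CPM these are at most a few reads a library in 3 of the 4 groups, and the SE behind the test is too small near 0 reads, so neither the size of the difference nor its p-value is supported by these reads. The gene was no longer among those tested once genes with a mean level under 1 CPM were left out. No other gene was called by this test.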

How the results depend on the processing

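No paired analysis was possible because the deposited tables hold no value per library, and leaving out each replicate was not run for the same reason. At an adjusted p under 0.01, 1230 genes rose and 1203 fell. At an adjusted p under 0.05 and a log2 fold change of at least 1 in size, 1040 rose and 805 fell, which left 172 of 343 called list members. These lower counts follow from the stricter rules. With a mean level of at least 1 CPM, 1961 rose and 2029 fell. Centred on the median of genes of at least 16 CPM, 2101 rose and 1792 fell. The difference of the responses was called for 0 genes with a mean level of at least 1 CPM and for 1385 when z was divided by its robust scale of 0.438. Of 344 alternative counts of rises or falls in single lists, 279 stayed within 1.5 times the deposited count and 65 were lower than that, and on centring the AHR, ATF4, aminoacyl-tRNA synthetase and ERK lists lost their 1 fall each. On centring, 7 of 193 named genes lost their call (SLC7A5, FARSA, NDRG2, NDUFS5, CREB3L1, DUSP10 and BCL2L11), 1 gained one and none reversed. All 86 alternative list medians stayed within the median SE of a single gene of the list, and 2 changed sign. Centring only subtracted the same -0.03 from each median, and most lists had no member under 1 CPM. Large shifts were therefore not possible for most lists. Depth limited what could be seen of genes under 5 CPM, where the SE of a fold change was 0.33 or more.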
